A study of Homo sapiens with 40 samples.

Results

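Transcripts of 8 transcription regulators of the integrated stress response were followed in HEK293T cells, a line derived from human embryonic kidney: ATF4, ATF3, ATF5, DDIT3, CEBPB, CEBPG, JDP2 and NUPR1. They were taken by symbol from a table of 28278 gene symbols, and all 8 were found and passed the filter on low counts, which left 16739 tested genes. RNA was measured in 40 libraries, 4 for each of 5 lines under vehicle or under 40 nM antimycin A, which blocks complex III of the respiratory chain, both for 6 hours. Wild-type cells carried an empty vector (WT-vector cells). The other lines carry the genotype label of an SLC25A12 knockout, made with the guide named sgSLC25A12, and SLC25A12 is the mitochondrial carrier that exchanges aspartate for glutamate. One of them had the vector alone (KO-vector cells), and another was labelled as receiving SLC25A12-WT. A further line received SLC25A12-F137S (F137S cells), and the last received SLC25A12-F137S together with dMTS-DELE1 (dMTS-DELE1 cells). The labels call the replicates biological. They do not say how the constructs were delivered, whether a line is 1 clone, or whether replicates were separate cultures, so p-values measure the spread between these libraries. By its design text the series asked about regulators of this response and its relation to respiration.

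In the integrated stress response, kinases that sense stress phosphorylate the initiation factor eIF2, which lowers protein synthesis in general while it favours translation of a few mRNAs with upstream reading frames, ATF4 and ATF5 among them. ATF4 then drives genes of amino acid supply and further factors such as ATF3 and DDIT3, which form dimers with each other through leucine zippers. Signals from damaged mitochondria reach this pathway through DELE1, which activates the kinase HRI (EIF2AK1). RNA levels show the transcript part of this circuit and neither translation nor protein, and in bulk RNA a change in every cell and a change in some cells cannot be told apart.

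Library totals ran from 30730335 to 31965438 counts. SLC25A12 mRNA checked the labels: in vehicle it stood at 38.7 ± 1.82 CPM (mean ± SD, n = 4; CPM is the count scaled to a common library size) in WT-vector cells, 3.08 ± 0.231 in KO-vector cells, 3716 ± 25.7 in dMTS-DELE1 cells and 1853 ± 18.3 in F137S cells. The libraries labelled SLC25A12-WT had 38.9 ± 0.330 CPM, the wild-type level, and edgeR called 0 of 16739 genes between them and WT-vector cells in vehicle, where 778 genes had an unadjusted p below 0.05 and the DESeq2 Wald test also called 0. They go against their label, so they are named as labelled libraries throughout, and no direction about re-expression of the carrier is drawn from them. DELE1 mRNA rose from 45.9 ± 2.15 CPM in F137S cells to 5344 ± 84.7 CPM in dMTS-DELE1 cells in vehicle. The 6 HEK293 markers (VIM, NEFL, NEFM, INA, PAX2 and LIN28B) were detected in every group and summed to 847 to 887 CPM in WT-vector and labelled libraries and to 616 to 666 CPM in the other lines. The 8 markers of other cells summed to 20.1 to 26.8 CPM in every group, mostly from COL1A1, with CD3E and HBB at or near 0. The part of this marker difference in the results below was not tested.

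**Figure D1:**
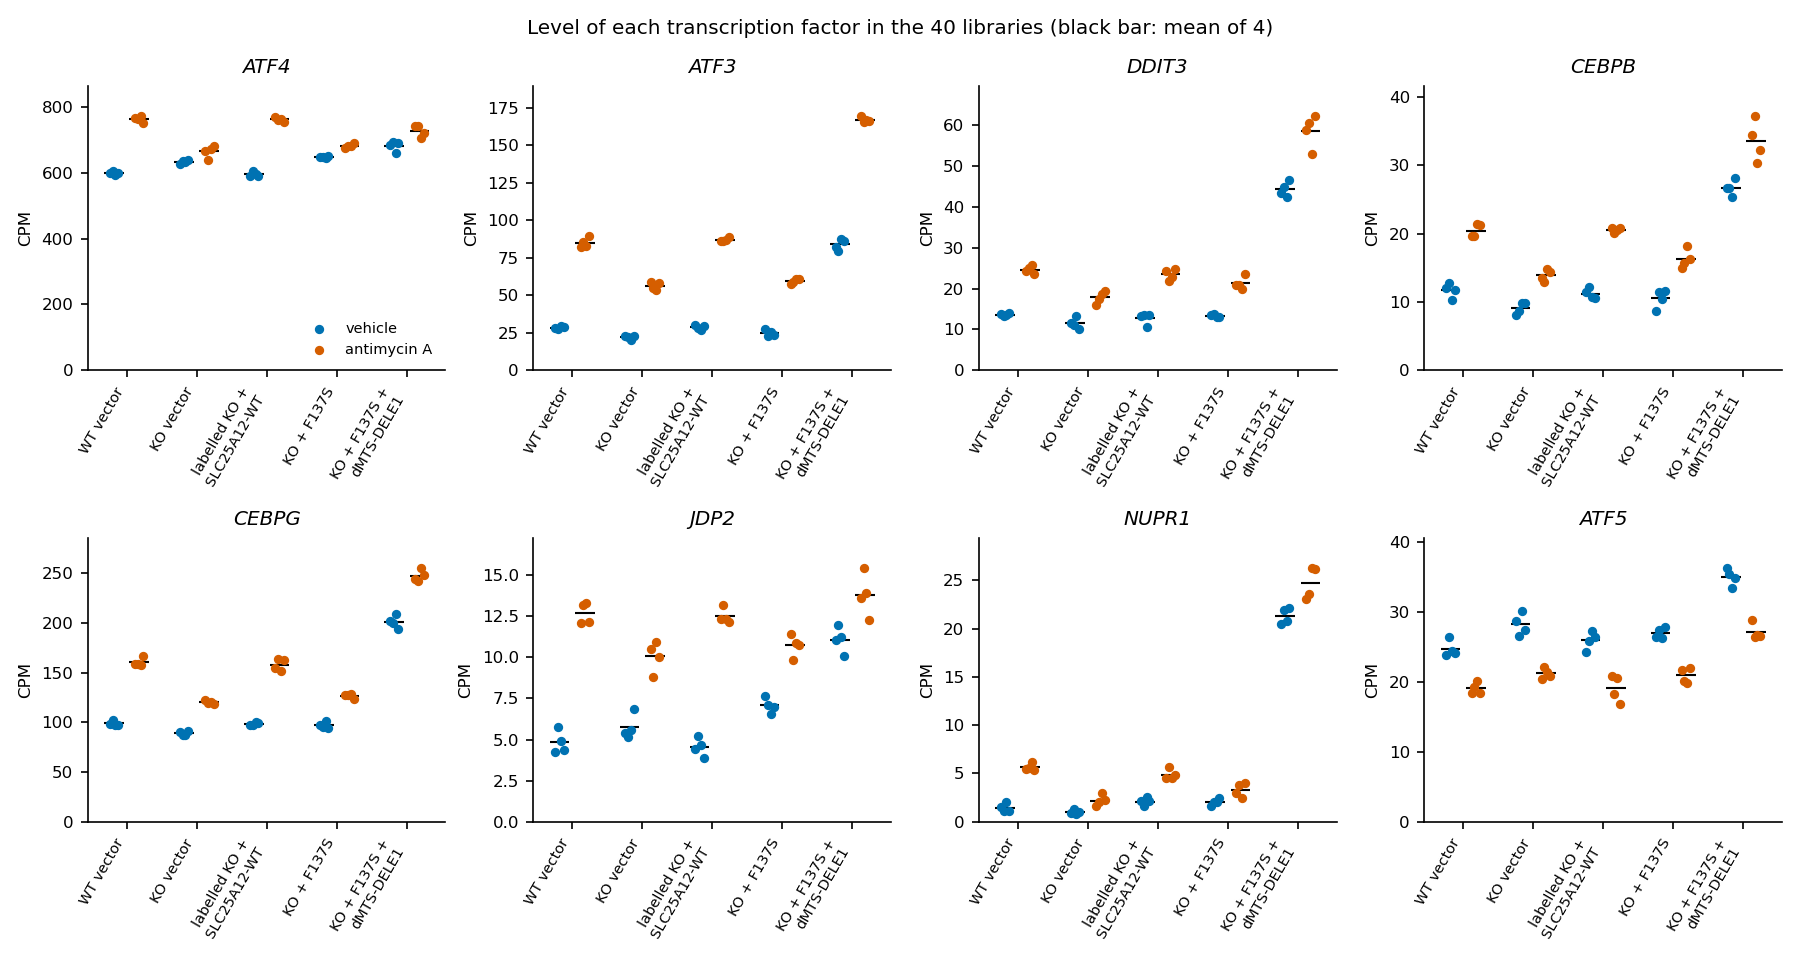
CPM of each of the 8 transcripts (y axis, linear from 0) in every library by line (x axis), in blue for vehicle and orange for antimycin A, with a black bar at the mean of 4 libraries. ATF5 is the panel in which the orange points lie below the blue ones, and the dMTS-DELE1 cells stand highest in vehicle for all 8 transcripts.

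Levels between genes can be compared only per length, here as CPM per kilobase of merged exons of the GENCODE v29 annotation (GRCh38). In WT-vector cells in vehicle, ATF4 was by far the most abundant at 238.7 CPM per kilobase, followed by CEBPG at 22.44, DDIT3 at 10.4, ATF5 at 8.372, ATF3 at 7.054 and CEBPB at 5.978. JDP2 at 0.7735 and NUPR1 at 0.256 CPM per kilobase were the scarcest. The merged exons of NUPR1 span 5.674 kilobases, so its value depends on annotated long transcripts that these cells may not make.

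ATF4 lies at chr22:39519695-39522685 on the plus strand, CEBPG at chr19:33373330-33382686, ATF5 at chr19:49928702-49933935, ATF3 at chr1:212565334-212620777, CEBPB at chr20:50190734-50192689 and JDP2 at chr14:75427716-75474111, all on the plus strand of GRCh38. DDIT3 lies on the minus strand at chr12:57516588-57521737, and NUPR1 on the minus strand at chr16:28532708-28539174. No source used here gives the strand setting of the counting, so reads of a gene overlapping on the other strand may be counted in or discarded. Exons on the other strand cover 31.6% of the exon bases of DDIT3 (MARS1 and MBD6), 21.2% of those of ATF5 (NUP62) and 11.8% of those of CEBPB (CEBPB-AS1), and 0.4% or less of the other members. On the same strand, AC022506.1, annotated as protein coding, covers 8.0% of the exon bases of DDIT3, and the microRNA MIR4751 covers 2.5% of those of ATF5. Their part in the counts was not tested.

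ATF4 and C/EBP proteins bind together at a composite element, and its core was searched as TGATGNAA on both strands in the RefSeq promoter windows (GRCh38.p14), each 250 bases before to 50 after an annotated start. These windows are shown because 3 of the 7 members with an entry (16 windows) hold the core, CEBPG, JDP2 and ATF3. That is 42.9% of these genes against 4.46% of all genes with an entry, and 18.8% of the windows against 3.62% of all 35116. Each window is 30 bases long and printed on the plus strand, and capitals mark the match.
CEBPG, chr19:33374060-33374089: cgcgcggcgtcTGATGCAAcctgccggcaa
JDP2, chr14:75427995-75428024: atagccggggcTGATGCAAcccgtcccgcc
ATF3, chr1:212565205-212565234: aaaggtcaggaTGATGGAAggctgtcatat
For comparison, CHAC1, an ATF4 target that cleaves glutathione, holds the core on the other strand.
CHAC1, chr15:40953251-40953280: ctcccctgccgTTGCATCActcctgccagg
CEBPG and JDP2 share the same 8 letters, and CHAC1 has their reverse complement. Of 33 effector genes of the response with an entry, 9 (27.3%) hold the core. The cyclic AMP response element TGACGTCA was in 0 of the 16 member windows and in 1.85% of all windows. These are matches of letters and no measurement of binding. NUPR1 has no entry.

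Antimycin A raised 7 of the 8 transcripts in WT-vector cells and lowered 1, ATF5. Among all 16739 tested genes, 25.5% were higher and 26.4% lower (51.9% called at an adjusted p below 0.05 by edgeR's quasi-likelihood test), so a call by itself is common in this comparison. The median log2 fold change of the 8 was 0.83, against 0.0097 over all tested genes. The increases ran, in log2, from 0.35 for ATF4 to 1.96 for NUPR1. All 8 transcripts were also called in KO-vector cells (background 51%, with 26.4% of genes higher and 24.7% lower), in the labelled libraries (52.3%, 25.9% and 26.4%) and in F137S cells (51.2%, 26.3% and 24.9%). Of the 8, 7 were called in dMTS-DELE1 cells (34.9%, 17.6% higher and 17.3% lower). ATF5 was the only one that fell in each of these lines. In all 40 pairs of transcript and line, the 4 antimycin libraries lay outside the range of the 4 vehicle libraries. Of all tested genes, 46.4% did so in WT-vector cells, 45.2% in KO-vector cells, 46.4% in the labelled libraries, 29.7% in dMTS-DELE1 cells and 43.5% in F137S cells. Changes of at least 2-fold were rarer: ATF3, JDP2 and NUPR1 reached that size in WT-vector cells (3.55% of all genes) and in the labelled libraries (3.26%), ATF3 and NUPR1 in KO-vector cells (2.89%), ATF3 in F137S cells (2.8%), while 0 members did in dMTS-DELE1 cells (1.02%).

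**Figure D2:**
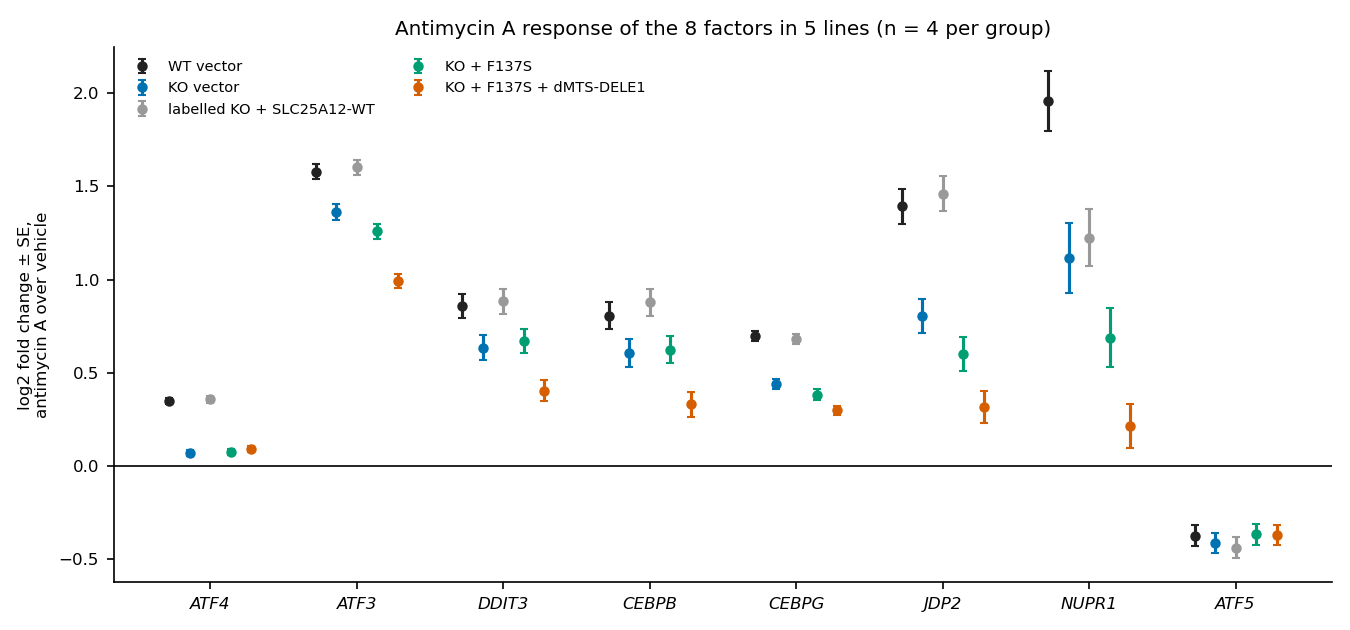
Log2 fold change of antimycin A over vehicle (y axis, ± SE from edgeR) for the 8 transcripts in 5 lines (colours), with 4 libraries per group. WT-vector cells and the labelled libraries lie above the other 3 lines for every transcript but ATF5. For NUPR1 the labelled libraries (1.22) lie close to KO-vector cells (1.11). ATF5 is below 0 in every line at -0.37 to -0.44.

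ATF4 encodes the central activator of the response. Its mRNA stood at 600, 607, 594 and 601 CPM in the 4 WT-vector libraries in vehicle and at 768, 764, 772 and 751 CPM in antimycin. The treated libraries were all higher, a log2 fold change of 0.35 ± 0.017 (± SE, n = 4 per group; adjusted p = 1.22e-29 by edgeR). KO-vector cells had 628, 637, 634 and 638 CPM in vehicle and 666, 639, 674 and 683 CPM in antimycin. Here the treated libraries again lay above the untreated ones, but by a narrow margin, and the increase was 0.070 ± 0.017, or 20.1% of the WT-vector log2 response. F137S cells went from 649, 647, 645 and 651 CPM to 675, 681, 684 and 690 CPM, and dMTS-DELE1 cells from 686, 695, 661 and 690 to 743, 742, 707 and 722 CPM. Their increases were 0.075 ± 0.017 and 0.092 ± 0.017, and those of the labelled libraries (590 to 605 to 756 to 771 CPM) were 0.36 ± 0.017. The full span of ATF4 over the 10 groups was only 1.28-fold, with SDs of 0.356% to 2.84% of the mean. Treated libraries lay above the vehicle libraries in each line. In KO-vector cells, however, the treated libraries spanned 639 to 683 CPM, and the nearest vehicle library was at 638 CPM.

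ATF3, a factor induced early by many stresses, had 28.3, 27.6, 29.4 and 28.8 CPM in WT-vector cells in vehicle and 82.5, 85.5, 83.0 and 89.5 CPM in antimycin. That is a 2.99-fold increase (1.58 ± 0.041 in log2). KO-vector cells rose from 22.7, 22.3, 19.97 and 22.8 to 58.6, 54.9, 53.7 and 58.5 CPM, F137S cells from 27.3, 23.0, 25.5 and 23.8 to 57.8, 58.7, 61.1 and 60.8 CPM, and dMTS-DELE1 cells from 82.1, 79.6, 87.4 and 86.5 to 169, 165, 167 and 166 CPM. The vehicle libraries of dMTS-DELE1 cells thus overlapped the antimycin libraries of WT-vector cells, and under antimycin they were higher again by 0.99 ± 0.037. The log2 response was 1.36 ± 0.042 in KO-vector cells, 86.3% of the WT-vector value, and 1.26 ± 0.042 in F137S cells. ATF3 was highest in dMTS-DELE1 cells under antimycin, 7.61 times its lowest group, KO-vector cells in vehicle.

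JDP2, which pairs with JUN and represses AP-1 target genes, was scarce, with 4.24, 5.78, 4.93 and 4.35 CPM in WT-vector cells in vehicle and 12.1, 13.2, 13.3 and 12.1 CPM in antimycin. All treated libraries lay far above the untreated ones, and the fold was 2.63 (1.39 ± 0.094 in log2). In KO-vector cells it moved from 5.40, 5.16, 5.61 and 6.83 to 10.5, 8.81, 10.9 and 10.0 CPM and in F137S cells from 7.65, 7.13, 6.56 and 6.96 to 11.4, 9.86, 10.9 and 10.7 CPM. Both lines started higher and ended lower than WT-vector cells, with log2 responses of 0.81 ± 0.093 and 0.60 ± 0.091. In dMTS-DELE1 cells it went from 11.03, 11.96, 11.2 and 10.1 to 13.6, 15.4, 13.9 and 12.3 CPM (0.32 ± 0.087, adjusted p = 0.00232 by edgeR), and the nearest libraries of these groups were 11.96 and 12.3 CPM.

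CEBPG encodes a C/EBP protein that pairs with ATF4. It had 98.9, 103, 97.2 and 97.4 CPM in WT-vector cells in vehicle and 159, 159, 158 and 167 CPM in antimycin, an increase of 0.70 ± 0.027. KO-vector cells went from 90.1, 86.9, 87.5 and 91.0 to 123, 120, 120 and 119 CPM (0.44 ± 0.027), and F137S cells from 97.6, 94.98, 101 and 94.3 to 127, 128, 128 and 123 CPM (0.38 ± 0.027). Under antimycin both lay wholly below the WT-vector libraries. Of all tested genes, 42.7% for KO-vector and 41.6% for F137S cells did not overlap WT-vector cells there, in either direction. In dMTS-DELE1 cells CEBPG was 202, 200, 209 and 194 CPM in vehicle, above every treated WT-vector library, and 244, 242, 256 and 249 CPM in antimycin (0.30 ± 0.025).

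CEBPB, a C/EBP activator whose mRNA is translated into several isoforms that counts do not separate, rose in each line. WT-vector cells had 12.04, 12.7, 10.3 and 11.7 CPM in vehicle and 19.6, 19.6, 21.4 and 21.2 CPM in antimycin (0.81 ± 0.072). KO-vector cells had 8.13, 8.74, 9.83 and 9.79 and 13.4, 12.9, 14.8 and 14.4 CPM (0.61 ± 0.075). The treated libraries of KO-vector cells overlapped none of the treated WT-vector libraries and lay below them. Such a lack of overlap, in either direction, held for 42.7% of all tested genes. F137S cells rose by 0.62 ± 0.073 to 15.0 to 18.2 CPM, and dMTS-DELE1 cells went from 26.7, 26.6, 25.3 and 28.1 to 34.5, 37.2, 30.3 and 32.3 CPM (0.33 ± 0.066). Its antisense neighbour CEBPB-AS1, with 25 to 116 counts per library, had a log2 change of 0.26 ± 0.20 in WT-vector cells under antimycin (adjusted p = 0.294 by edgeR) and rose by 1.14 ± 0.18 in dMTS-DELE1 against F137S cells in vehicle. Its part in the CEBPB counts was not tested.

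DDIT3 encodes CHOP, which pairs with C/EBP proteins and is linked to cell death under lasting stress. It stood at 13.7, 13.2, 13.6 and 13.9 CPM in WT-vector cells in vehicle and at 24.2, 25.1, 25.7 and 23.6 CPM in antimycin (0.86 ± 0.065). KO-vector cells had 11.5, 11.2, 13.3 and 10.1 and 15.9, 17.5, 18.7 and 19.4 CPM (0.63 ± 0.067), and F137S cells 13.5, 13.8, 13.1 and 13.0 and 20.9, 20.8, 19.8 and 23.5 CPM (0.67 ± 0.065). Vehicle libraries of KO-vector and WT-vector cells overlapped, and treated ones did not. Of all tested genes, 42.9% did not overlap between these lines in vehicle and 42.7% did not in antimycin. dMTS-DELE1 cells had 43.3, 45.0, 42.3 and 46.6 CPM in vehicle and 58.9, 60.5, 53.0 and 62.1 CPM in antimycin, so that each of their untreated libraries exceeded every treated library of the other lines. MARS1, which overlaps DDIT3 on the other strand, rose by 0.12 ± 0.022 in WT-vector cells under antimycin, and MBD6 by 0.26 ± 0.054. In dMTS-DELE1 against F137S cells in vehicle they rose by 0.30 ± 0.022 and 1.04 ± 0.051, and their part in the DDIT3 counts was not tested.

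NUPR1 encodes a small stress-induced nuclear protein that binds chromatin and has no leucine zipper. It had 1.55, 1.16, 2.03 and 1.06 CPM in WT-vector cells in vehicle (32 to 61 counts per library) and 5.47, 5.59, 6.21 and 5.32 CPM in antimycin. The 3.88-fold increase (1.96 ± 0.16 in log2) was the largest of the 8 in that line, with the widest error. In the labelled libraries the NUPR1 increase was 1.22 ± 0.15, or 62.6% of the WT-vector log2 response, and below those of ATF3 and JDP2. KO-vector cells had 0.889, 1.35, 0.756 and 1.04 CPM (24 to 43 counts) and 1.58, 2.01, 2.94 and 2.23 CPM, an increase of 1.11 ± 0.19. F137S cells had 1.68, 2.07, 2.03 and 2.46 and 2.93, 3.86, 2.49 and 4.00 CPM, groups whose nearest libraries were 2.46 and 2.49 CPM (0.69 ± 0.16). In dMTS-DELE1 cells NUPR1 stood at 20.5, 21.9, 20.8 and 22.1 CPM in vehicle and 23.0, 23.6, 26.3 and 26.1 CPM in antimycin, 0.21 ± 0.12 with a 95% interval of -0.024 to 0.45. That response did not pass the test (adjusted p = 0.163 by edgeR), though the libraries did not overlap, and it passed when only the groups compared were fitted (adjusted p = 0.00514).

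ATF5, which like ATF4 is controlled at translation and is tied to the mitochondrial unfolded protein response, was the exception. It stood at 23.9, 26.4, 24.5 and 24.1 CPM in WT-vector cells in vehicle and at 18.4, 19.3, 20.2 and 18.4 CPM in antimycin, and fell by 0.37 ± 0.056 in log2 (adjusted p = 2.07e-08 by edgeR). KO-vector cells went from 28.8, 26.6, 30.1 and 27.5 to 20.4, 22.2, 21.4 and 20.9 CPM, and dMTS-DELE1 cells from 36.3, 35.5, 33.4 and 34.9 to 28.9, 26.4, 26.7 and 26.5 CPM. The log2 change was -0.37 in dMTS-DELE1 cells, -0.37 in F137S cells, -0.41 in KO-vector cells and -0.44 in the labelled libraries, and its difference between KO-vector and WT-vector cells had a 95% interval of -0.19 to 0.12. NUP62, whose exons overlap ATF5 on the other strand, also fell under antimycin, by 0.17 ± 0.027 in KO-vector and 0.21 ± 0.027 in WT-vector cells. In dMTS-DELE1 against F137S cells in vehicle the log2 differences had opposite signs, NUP62 at -0.082 ± 0.027 and ATF5 at 0.37 ± 0.053. The part of NUP62 in the ATF5 counts was not tested.

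Lines were then compared within each treatment. In vehicle all 8 transcripts differed between KO-vector and WT-vector cells, against a background of 48.3% of all genes (22.7% higher and 25.6% lower). ATF4 (0.080 ± 0.017), ATF5 (0.19 ± 0.054) and JDP2 (0.25 ± 0.10) were higher in KO-vector cells, and ATF3 (-0.38 ± 0.045), DDIT3 (-0.24 ± 0.069), CEBPB (-0.36 ± 0.076), CEBPG (-0.16 ± 0.028) and NUPR1 (-0.52 ± 0.20) were lower. Under antimycin 7 were lower and ATF5 alone was higher (background 48%, 24.5% lower and 23.5% higher). ATF4 and JDP2 thus stood on opposite sides in the 2 conditions, at -0.20 ± 0.017 and -0.33 ± 0.088 under antimycin. NUPR1 had the largest difference there, -1.36 ± 0.15, a 0.388-fold level in KO-vector cells. The 2 vehicle calls with overlapping libraries and p-values nearest the threshold rested on single libraries. JDP2 (adjusted p = 0.0273 by edgeR) was no longer called without WT-vector replicate 1 or 4 or KO-vector replicate 4, at 0.134, 0.108 and 0.225, and without the last its log2 difference was 0.16. NUPR1 (adjusted p = 0.0282 by edgeR) was no longer called without WT-vector replicate 1 or 3 or KO-vector replicate 1 or 3, at 0.0692, 0.206, 0.0804 and 0.112, and without WT-vector replicate 3 its log2 difference was -0.32. Likewise the ATF5 difference under antimycin (0.15 ± 0.056) was lost without treated WT-vector replicate 1 or 4 or KO-vector replicate 2 or 3, with adjusted p from 0.0604 to 0.102 by edgeR.

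Few genes were called between F137S and KO-vector cells. In vehicle 2 members were called among 14 genes in all (0.0836%): CEBPG (0.13 ± 0.028, adjusted p = 0.0284 by edgeR) and NUPR1 (1.03 ± 0.19, adjusted p = 0.00587), both higher in F137S cells. CEBPG was 97.6, 94.98, 101 and 94.3 CPM in F137S cells against 90.1, 86.9, 87.5 and 91.0 CPM in KO-vector cells, with no overlap. The same was so for 3.61% of all tested genes. Both calls rested on single libraries, for CEBPG on KO-vector replicates 2 and 3 and F137S replicates 1 and 3 (adjusted p without each 0.152, 0.13, 0.0896 and 0.245 by edgeR) and for NUPR1 on KO-vector replicate 3 and F137S replicate 4 (0.0532 and 0.0623). The CEBPG call was also lost with only the groups compared (0.0727). Under antimycin edgeR called 0 of the 8, of which 6 had an unadjusted p below 0.05, against 6.32% of all genes at that p. By adjusted p edgeR called 19 genes in all (0.114%). The DESeq2 Wald test called 1, NUPR1 (adjusted p = 0.0169). The 95% interval of the antimycin difference was 0.0012 to 0.070 for ATF4, 0.12 to 0.38 for DDIT3 and 0.28 to 0.92 for NUPR1, which lie above 0 but are not adjusted for the number of genes.

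F137S cells differed from WT-vector cells in 5 of 8 transcripts in vehicle (background 49.1%, 23.4% higher and 25.8% lower) and in all 8 under antimycin (48.6%, 23.7% and 24.8%). In vehicle ATF4 (0.11 ± 0.017), ATF5 (0.13 ± 0.054), JDP2 (0.55 ± 0.10) and NUPR1 (0.50 ± 0.18) were higher and ATF3 (-0.19 ± 0.044) was lower. The ATF5 call was lost without WT-vector replicate 1, 3 or 4 or F137S replicate 2 or 4, and the NUPR1 call without WT-vector replicate 2 or 4 or F137S replicate 4, with adjusted p from 0.077 to 0.14 by edgeR. Under antimycin 7 were lower, from -0.16 for ATF4 to -0.76 for NUPR1, and ATF5 was higher (0.14 ± 0.056). That ATF5 call was lost without treated WT-vector replicate 1, 2 or 4 or F137S replicate 1 or 4 (adjusted p up to 0.189 by edgeR), without the filter on low counts (0.0513) and with only the groups compared (0.0634), and the JDP2 call without treated F137S replicate 2 (0.0579).

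The labelled libraries had 0 of 8 transcripts called against WT-vector cells in either condition, where edgeR called 0 and 1 genes in all (0% and 0.00597%). One member, NUPR1 in vehicle, had an unadjusted p below 0.05, with 2.098, 1.59, 2.52 and 2.15 CPM in the labelled libraries. Against KO-vector cells 6 of 8 were called in vehicle, 4 higher and 2 lower (background 47.8%, 25.3% and 22.6%), and all 8 under antimycin (48.2%, 24.7% and 23.5%), where 7 were higher in the labelled libraries and ATF5 was lower (-0.15 ± 0.056). That ATF5 call was lost without treated KO-vector replicate 2, 3 or 4 or labelled replicate 2 or 4, with adjusted p from 0.0528 to 0.298 by edgeR, and its log2 difference was -0.077 without labelled replicate 4. In vehicle ATF5 was also called, lower in the labelled libraries, with DESeq2 size factors (adjusted p = 0.0383 by edgeR), without the filter (0.0403), with only the groups compared (0.0426) and by the DESeq2 Wald test (0.031), which makes 7 of 8.

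At least 2-fold differences between these lines were found for NUPR1 alone. It reached that size in KO-vector against WT-vector cells under antimycin (3.59% of all genes), in the labelled libraries against KO-vector cells in vehicle (3.39%) and in antimycin (3.54%), and in F137S against KO-vector cells in vehicle (0.0358%). No member did so in KO-vector against WT-vector cells in vehicle (3.42%), or in F137S against WT-vector cells in vehicle (3.41%) or antimycin (3.67%).

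Whether the response itself differed was tested as the difference of the antimycin effect between lines. It was smaller in KO-vector than in WT-vector cells for ATF4, CEBPG, JDP2 and ATF3. The difference in log2 was -0.28 ± 0.025 for ATF4 (adjusted p = 2.02e-14 by edgeR), -0.26 ± 0.038 for CEBPG (1.14e-06), -0.59 ± 0.13 for JDP2 (0.00493) and -0.22 ± 0.059 for ATF3 (0.0355). These are 4 of 8 members, against 0.729% of all genes with a smaller and 0.836% with a larger value (1.57% called in all, and 0.0896% at least 2-fold, with 0 members). The other 4 did not pass: DDIT3 had -0.23 ± 0.093, CEBPB -0.20 ± 0.10, NUPR1 -0.84 ± 0.25 (adjusted p = 0.0835 by edgeR) and ATF5 -0.037 ± 0.078. The ATF3 call was lost on leaving out WT-vector replicate 2 or KO-vector replicate 1, 2 or 4 in vehicle, or WT-vector replicate 4 or KO-vector replicate 2 or 3 in antimycin, with adjusted p from 0.0609 to 0.0983 by edgeR. NUPR1, in turn, passed the DESeq2 Wald test (adjusted p = 0.0183), and passed edgeR without WT-vector replicate 3 or KO-vector replicate 3 in vehicle, or KO-vector replicate 3 in antimycin (0.0126, 0.0459 and 0.0122).

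**Figure D3:**
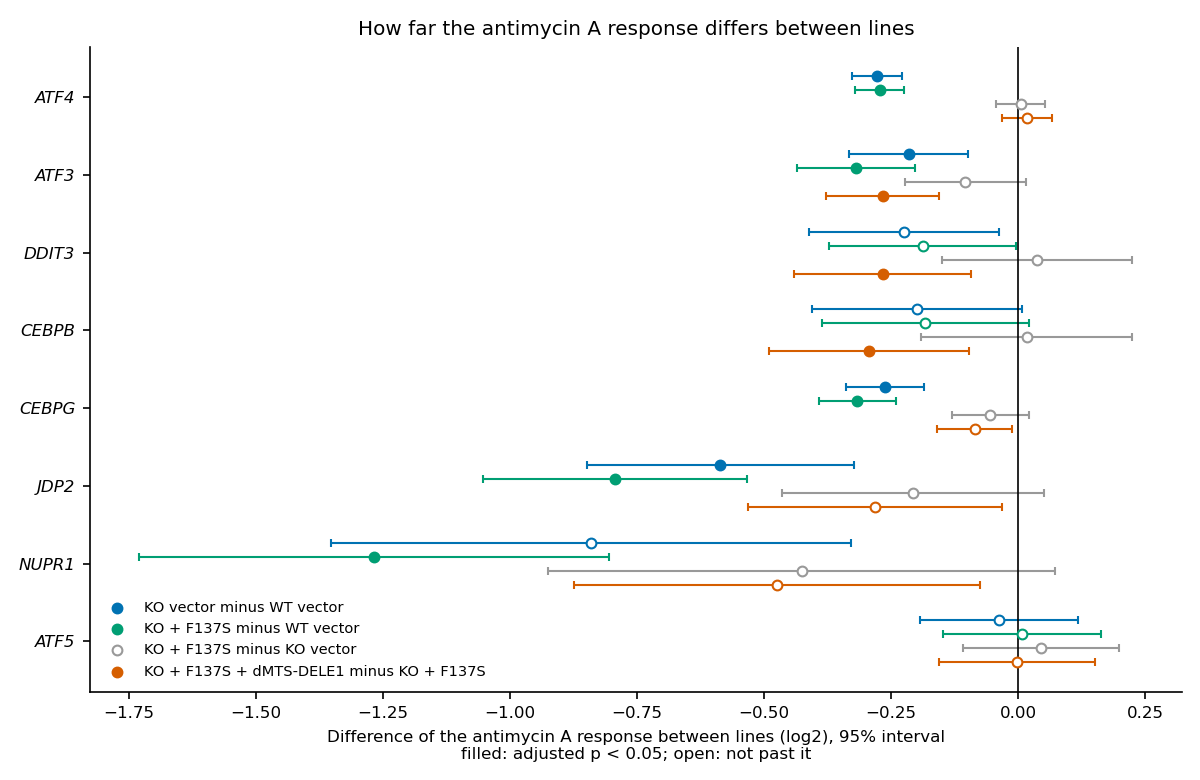
Difference of the log2 antimycin A response between pairs of lines (x axis, with 95% interval) for the 8 transcripts (y axis), filled where edgeR's adjusted p was below 0.05. KO-vector and F137S cells lie left of 0 against WT-vector cells, with filled points, for ATF4, ATF3, CEBPG and JDP2. DDIT3, CEBPB and NUPR1 also lie left of 0 there, filled only for NUPR1 in F137S cells. No point is filled for F137S against KO-vector cells.

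Against the same WT-vector cells, the response of F137S cells was smaller for ATF4 (-0.27 ± 0.025), ATF3 (-0.32 ± 0.059), CEBPG (-0.32 ± 0.038), JDP2 (-0.79 ± 0.13) and NUPR1 (-1.27 ± 0.23), 5 of 8 against a background of 1.49% (0.771% smaller), with NUPR1 alone at least 2-fold (0.102%). Both sets of values share the WT-vector libraries. Between F137S and KO-vector cells edgeR called 0 members and 0 genes (0%), with 0 members and 711 genes at an unadjusted p below 0.05, and the DESeq2 Wald test called 0. The 95% interval of that difference was -0.044 to 0.054 for ATF4 and -0.13 to 0.022 for CEBPG, narrower than the gap of either line to WT-vector cells, but -0.46 to 0.051 for JDP2 and -0.92 to 0.073 for NUPR1, which are wide. The labelled libraries responded more than KO-vector cells in ATF4 (0.29 ± 0.025), ATF3 (0.24 ± 0.059), CEBPG (0.25 ± 0.038) and JDP2 (0.65 ± 0.13), with a background of 1.65% (0.705% larger, 0.0896% at least 2-fold), and these values share the KO-vector libraries with those above. Against WT-vector cells their response differed in 0 members and 0 genes by edgeR (0%), with 1 member, NUPR1, and 756 genes at an unadjusted p below 0.05, and 0 genes by the DESeq2 Wald test.

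dMTS-DELE1 cells held more of all 8 transcripts than F137S cells without any antimycin (background 41.8% called, 17.7% higher). The differences in vehicle were 3.37 ± 0.14 for NUPR1, a 10.3-fold higher level, 1.75 ± 0.041 for ATF3, 1.73 ± 0.064 for DDIT3, 1.34 ± 0.071 for CEBPB and 1.05 ± 0.027 for CEBPG. JDP2 (0.65 ± 0.091), ATF5 (0.37 ± 0.053) and ATF4 (0.076 ± 0.017) had smaller ones. No library of one line overlapped the other line for any of the 8, as was so for 35.2% of all tested genes. NUPR1, ATF3, DDIT3, CEBPB and CEBPG differed by at least 2-fold, against 2.25% of all genes. SLC25A12 mRNA also differed between these lines, at 3716 against 1853 CPM, so effects of dMTS-DELE1 and of the higher carrier mRNA cannot be told apart. Under antimycin all 8 were again higher (background 54.3%, 25.5% higher), 4 of them at least 2-fold (2.95%), from 0.093 ± 0.017 for ATF4 to 2.90 ± 0.14 for NUPR1. The antimycin response of dMTS-DELE1 cells was smaller than that of F137S cells for ATF3 (-0.27 ± 0.056, adjusted p = 0.000312 by edgeR), DDIT3 (-0.27 ± 0.087, 0.0313) and CEBPB (-0.29 ± 0.10, 0.0366), 3 of 8 against a background of 11.9% (3.7% smaller, 0.215% at least 2-fold). NUPR1 (-0.47 ± 0.20) was not called, but passed with only the groups compared or without treated F137S replicate 3 (adjusted p = 0.0323 by edgeR in both) and by the DESeq2 Wald test (0.0446). ATF4 had 0.018 ± 0.024, with a 95% interval of -0.031 to 0.066. The DDIT3 call was lost without dMTS-DELE1 replicate 2 or 4 in vehicle, or F137S replicate 4 or dMTS-DELE1 replicate 3 in antimycin (adjusted p from 0.0555 to 0.0848 by edgeR). The CEBPB call was lost without F137S replicate 1 or dMTS-DELE1 replicate 2 or 4 in vehicle, or F137S replicate 3 or dMTS-DELE1 replicate 3 or 4 in antimycin (0.0528 to 0.167), without the labelled libraries (0.052) and without the filter on low counts (0.0564).

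**Figure D4:**
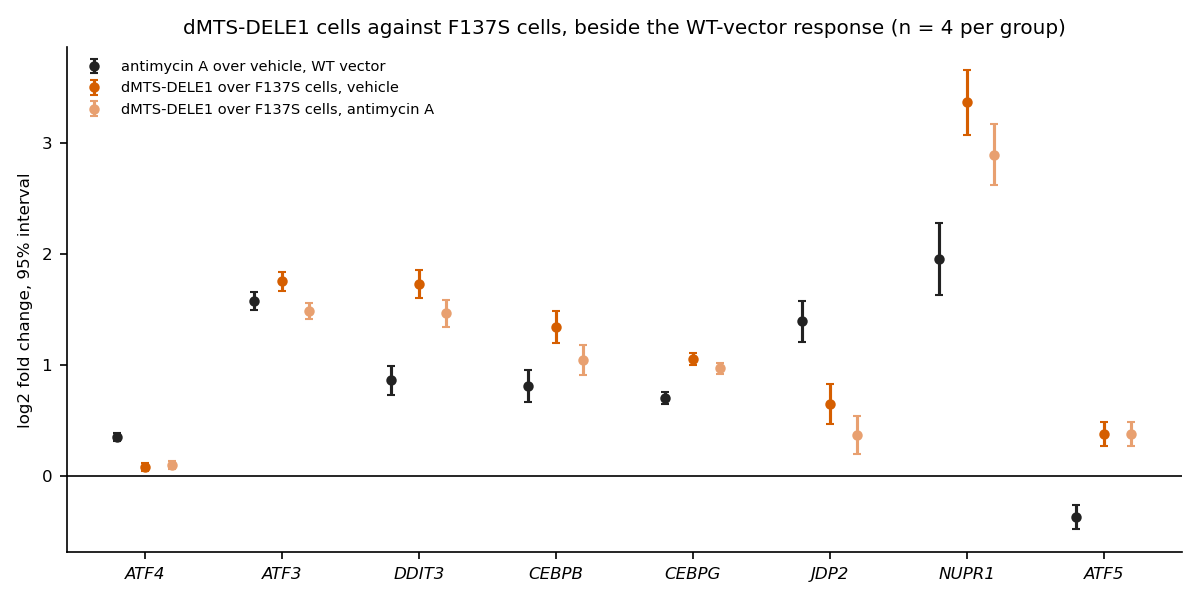
Log2 fold change (y axis, with 95% interval, n = 4 per group) of dMTS-DELE1 over F137S cells in vehicle and in antimycin A, beside the antimycin A response of WT-vector cells, for the 8 transcripts. ATF4 and JDP2 are higher for the WT-vector response than in either dMTS-DELE1 series. For ATF3 the WT-vector response (1.58) is above the antimycin series (1.49) but below the vehicle series. ATF5 is below 0 for the WT-vector response and above 0 in both dMTS-DELE1 series.

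The dMTS-DELE1 difference in vehicle was next set against the WT-vector antimycin response, which shares no library with it. This comparison was added after the values had been seen. All 8 differed in their log2 values taken with sign (background 49%, with 23.8% of genes higher and 25.2% lower), NUPR1 alone by at least 2-fold (4.61%). For NUPR1 the dMTS-DELE1 difference exceeded the antimycin response by 1.41 ± 0.22, for DDIT3 by 0.87 ± 0.091, for ATF5 by 0.75 ± 0.077, for CEBPB by 0.53 ± 0.10, for CEBPG by 0.35 ± 0.038 and for ATF3 by 0.17 ± 0.058 (adjusted p = 0.00949 by edgeR). For ATF4 and JDP2 it fell short of it, by -0.27 ± 0.025 and -0.75 ± 0.13. ATF5 changed its direction between the 2 settings at a like size, -0.37 with antimycin and 0.37 in dMTS-DELE1 cells. ATF4 mRNA changed by 1.05-fold in cells where DDIT3 was 3.32-fold and CEBPG 2.07-fold higher.

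Genes that the factors are known to drive were taken as a list of 40 effectors. The list was chosen with earlier results of these data known, so its counts are descriptive and give no independent support. Of the 40, 34 rose and 2 fell under antimycin in WT-vector cells, against 25.5% and 26.4% of all tested genes. Their median log2 fold change was 0.36, against 0.0097 over all tested genes. CHAC1 rose by 3.17 ± 0.12, ASNS, which makes asparagine, by 1.47 ± 0.14, and SLC6A9, a glycine transporter, by 1.43 ± 0.059. GDF15, a secreted stress hormone, rose by 1.72 ± 0.40, but only from 1 to 13 counts per library to 14 to 19. The labelled libraries had 4 to 8 GDF15 counts in vehicle and 7 to 12 in antimycin. In KO-vector cells 24 of the 40 rose and 2 fell, against 26.4% and 24.7% of all tested genes. The median was 0.15, against 0.018 over all tested genes. The response was smaller in KO-vector than in WT-vector cells for 24 and larger for 0, against 0.729% and 0.836% of all tested genes. The median difference was -0.19, against 0.0079 over all tested genes. CHAC1 showed the largest such gap (-1.26 ± 0.18), followed by ADM2 (-0.97 ± 0.24), SLC6A9 (-0.71 ± 0.085) and CTH (-0.52 ± 0.057). In dMTS-DELE1 against F137S cells in vehicle 35 were higher and 3 lower, against 17.7% and 24.1% of all tested genes. The median was 0.51, against -0.021 over all tested genes. Among those higher were GDF15 (5.65 ± 0.27, from 4 to 10 counts per library to 296 to 365), CHAC1 (2.62 ± 0.11) and TRIB3, an inhibitor of ATF4 and AKT (2.30 ± 0.047). TRIB3 rose by 0.32 ± 0.049 under antimycin in WT-vector cells. Another list held 21 genes placed upstream of ATF4 (eIF2 kinases, eIF2 and eIF2B subunits, phosphatase subunits, DELE1, OMA1 and SLC25A12). The place of SLC25A12 there was not tested. Of the 21, 6 rose and 6 fell under antimycin in WT-vector cells, with a median of 0.017, a share near the background. Among the 21, PPP1R15A, the stress-induced subunit that reverses eIF2 phosphorylation and also on the effector list, rose by 0.69 ± 0.048. PPP1R15B rose by 0.31 ± 0.023, while SLC25A12 (-0.34 ± 0.030) and DNAJC3 (-0.21 ± 0.031) fell. In dMTS-DELE1 against F137S cells in vehicle, 6 of the 21 were higher and 8 lower, with a median of -0.030. PPP1R15A (1.98 ± 0.045), DELE1 and SLC25A12 were among those higher.

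**Figure D5:**
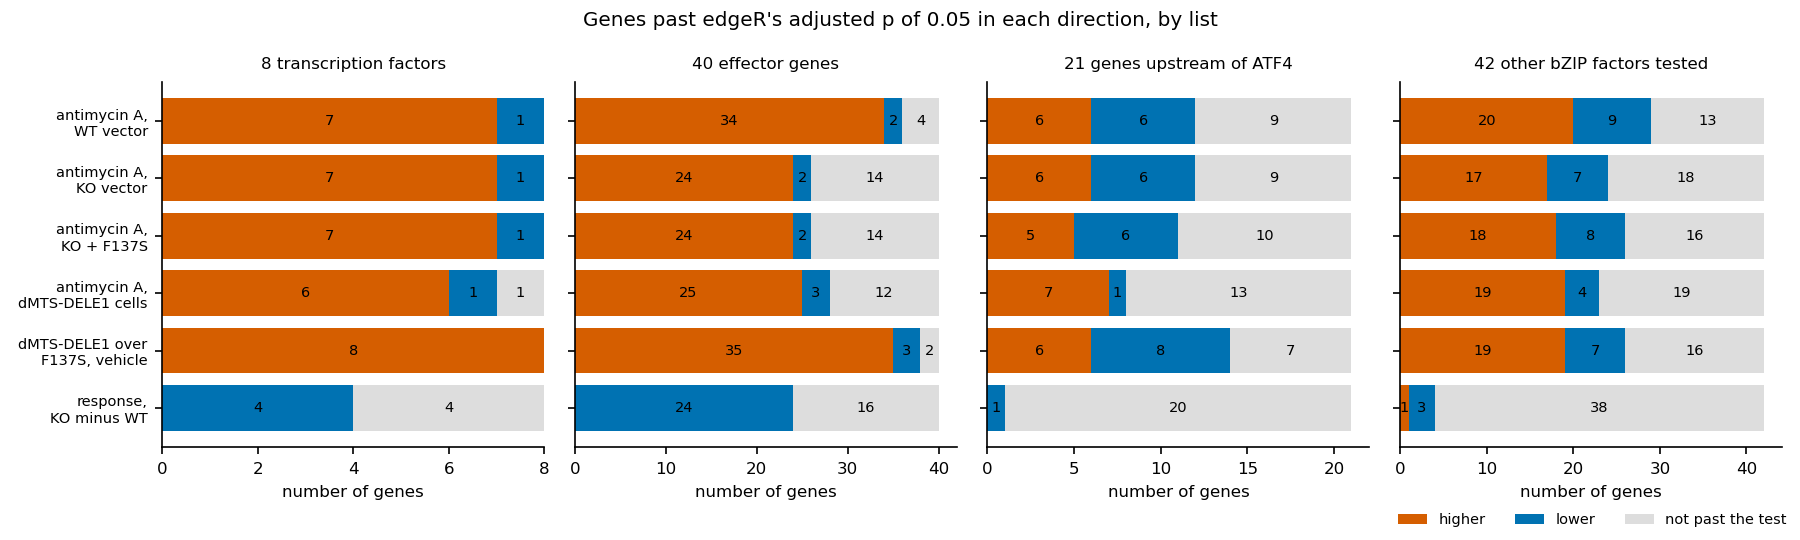
Number of genes (x axis) higher, lower or not past edgeR's adjusted p of 0.05 for the 8 transcripts and for lists of 40 effectors, 21 genes placed upstream of ATF4 and 42 other tested bZIP factors, in 6 comparisons. The effectors go from 34 higher in WT-vector cells to 24 in KO-vector cells, and 35 are higher in dMTS-DELE1 than in F137S cells in vehicle. Of all tested genes, 25.5%, 26.4% and 17.7% were higher in these comparisons.

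Over the means of the 10 groups, the 8 transcripts fell into patterns that differed. CEBPB and CEBPG ran most closely together, with a Pearson correlation of log2 CPM of 0.995, DDIT3 and CEBPG had 0.987, and ATF4 and JDP2 had 0.93, above the 0.628 to 0.824 of ATF4 with the other 5 that rose. ATF5 correlated with the others at -0.451 to 0.246. These are descriptions over 10 points that share lines and treatments. The order of the levels shows the same: KO-vector cells in vehicle were lowest for ATF3, DDIT3, CEBPB, CEBPG and NUPR1, and treated dMTS-DELE1 cells were highest for these and for JDP2. For ATF4 the treated WT-vector cells were highest, with treated labelled libraries next and overlapping them. Of the 9 pairs of neighbours in the order of groups, libraries overlapped in 3 for CEBPG, 4 for ATF3 and CEBPB, 5 for ATF4 and DDIT3, 6 for NUPR1 and 7 for ATF5 and JDP2.

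Among 10992 other genes with a mean log2 CPM of at least 1, the closest in pattern to ATF4 was PSPH, the last enzyme of serine synthesis (0.9622), and the closest to JDP2 were DDIT4, a stress-induced inhibitor of mTORC1 (0.9861), and CHAC1 (0.9748). DDIT3 was most like CDKN1A, which encodes the cell-cycle inhibitor p21 (0.9951), and the closest to NUPR1 was also CDKN1A (0.9878), then ADM2 (0.9874). The nearest to CEBPG was SLC7A3, a cationic amino acid transporter (0.9955), to CEBPB UNC5B (0.995), and to ATF3 TNFRSF12A, the receptor for the cytokine TWEAK (0.9914). ATF5 was closest to KIN (0.9864), with log2 changes of -0.21 under antimycin in WT-vector cells and 0.20 in dMTS-DELE1 against F137S cells in vehicle.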

How the data were processed

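Poly(A) RNA of 40 HEK293T libraries was primed with random hexamers and read as paired reads, per the labels' protocols. The authors deposited raw counts per gene symbol, made with HISAT2 2.1.0 and featureCounts 2.0.6 on hg38, per the submitters' processing notes; no source used here gives settings, annotation or strand use. Totals were 30730335 to 31965438 counts. Among counts from 1 to 20, 55.1% to 58.7% per library were even, so precision at low counts may be overstated, and the cause was not tested.

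Counts were filtered with filterByExpr (16739 genes kept), scaled by TMM and fitted with edgeR 4.0.16 (R 4.3.3; quasi-likelihood, robust, 1 coefficient per group over all 40 libraries). P-values were adjusted by Benjamini-Hochberg over every tested gene and called below 0.05. Intervals are 95%, and SEs come from the test statistic. CPM uses TMM-scaled totals over tested genes. Log2 CPM adds a prior count of 2. The common biological coefficient of variation was 5.09%. The procedure was tested on simulated data.

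The 8 members and the lists were chosen with earlier results of these data known. Named are all 8 members in every comparison, up to 4 genes of each list per comparison by size among those called (fewer where counts were low), up to 3 genes closest in pattern to each member, overlapping genes, SLC25A12 and DELE1. Residuals of libraries sharing a replicate number correlated at -0.00102 on average (180 pairs, -0.0588 to 0.051), so the main tests are unpaired. Alternatives were DESeq2 1.42.0 (size factors, Wald test), no filter, the replicate block, only the groups compared, no labelled libraries, a 2-fold rule and each library left out.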

Additional observations from a re-analysis of the deposited data

Results flagged for a closer look

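In 4 of 80 sets of 4 libraries (a transcript in a group), 1 library stood apart from the others by Dixon's criterion, and chance flags about 1 in 20 such sets. ATF3 had 1 low KO-vector library in vehicle at 19.97 CPM, with the next at 22.29. DDIT3 had 1 low labelled library in vehicle at 10.69 CPM, with the next at 13.26. ATF5 had 1 high dMTS-DELE1 library in antimycin at 28.91 CPM, with the next at 26.71, and CEBPG had 1 high WT-vector library in antimycin at 166.9 CPM, with the next at 159.1.

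The antimycin response differed between lines by edgeR's test of the difference itself in 16 cases, here in log2 with n = 4 per group. KO-vector minus WT-vector cells gave -0.278 for ATF4, -0.216 for ATF3, -0.262 for CEBPG and -0.586 for JDP2. The labelled libraries minus KO-vector cells gave 0.287 for ATF4, 0.239 for ATF3, 0.245 for CEBPG and 0.655 for JDP2. F137S minus WT-vector cells gave -0.273 for ATF4, -0.32 for ATF3, -0.316 for CEBPG, -0.793 for JDP2 and -1.27 for NUPR1. dMTS-DELE1 minus F137S cells gave -0.267 for ATF3, -0.267 for DDIT3 and -0.294 for CEBPB.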

How the results depend on the processing

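Over all members, comparisons and alternatives, 3080 values were recomputed, of which 2993 kept their side of the threshold, 60 lost a call, 27 gained one and 0 called values reversed. Of the 2993, 70 changed sign, all of them uncalled in both fits. Of the 3080, 1984 came from leaving out 1 library, with 53 calls lost and 18 gained. Leaving out 1 library moved a member's log2 value by up to 0.219, and the other alternatives by up to 0.0211. With the replicate block, 192 of 192 member values were the same in call and direction, but the replicate numbers do not pair the samples.

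Asking for a 2-fold change as well left fewer members called, by construction, beside 0.0358% to 4.61% of all genes. Antimycin responses kept 3 in WT-vector cells, 3 in the labelled libraries, 2 in KO-vector cells, 0 in dMTS-DELE1 cells and 1 in F137S cells. dMTS-DELE1 against F137S cells kept 5 in vehicle and 4 in antimycin, and KO-vector against WT-vector cells 0 and 1. The labelled libraries against KO-vector cells kept 1 and 1, F137S against WT-vector cells 0 and 0, and F137S against KO-vector cells 1 in vehicle. Differences of response kept 0 for KO-vector against WT-vector cells, 0 for labelled against KO-vector cells, 1 for F137S against WT-vector cells and 0 for dMTS-DELE1 against F137S cells. The comparison added afterwards kept 1.

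Members called between F137S and KO-vector cells in antimycin went from 0 to 1 with the DESeq2 Wald test, and in vehicle from 2 to 1 when only the groups compared were fitted. Leaving out 1 library gave 0 to 3 in vehicle and 0 to 1 in antimycin for this pair, 3 to 5 for F137S against WT-vector cells in vehicle, and 1 to 4 for the difference of response between dMTS-DELE1 and F137S cells. All genes called between F137S and KO-vector cells in vehicle numbered 14, and 27 with the Wald test, 6 without KO-vector replicate 2, 8 without F137S replicate 1 and 5 without F137S replicate 4. In antimycin there were 19, and 33 with the Wald test and 12 without KO-vector replicate 1. The 276 genes whose response differed between labelled libraries and KO-vector cells became 180 without treated KO-vector replicate 1. The JDP2 and NUPR1 differences between KO-vector and WT-vector cells in vehicle had an adjusted p of 0.0611 and 0.0621 by edgeR when only these groups were fitted. The causes were not tested. Counts of 24 to 78 per library limit NUPR1 in vehicle outside dMTS-DELE1 cells.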

Other observations

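Other leucine zipper factors, possible dimer partners of the members, were counted as a list of 45, of which 42 were tested. Under antimycin 20 rose and 9 fell in WT-vector cells and 17 rose and 7 fell in KO-vector cells, with medians of 0.15 and 0.10. Of all tested genes, 25.5% were higher and 26.4% lower in the first comparison and 26.4% and 24.7% in the second. JUND rose by 1.42 ± 0.092 and JUN, the core AP-1 subunit and a partner of JDP2 and ATF3, by 1.27 ± 0.031 in WT-vector cells, and by 1.33 ± 0.10 and 1.02 ± 0.032 in KO-vector cells. The JUN response was smaller in KO-vector cells, with a log2 difference of -0.25 ± 0.044 (adjusted p = 0.000377 by edgeR), as was that of NFE2L2, the antioxidant factor NRF2, at -0.22 ± 0.044 (0.0012).

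In dMTS-DELE1 against F137S cells in vehicle, 19 of the 42 were higher and 7 lower, against 17.7% and 24.1% of all tested genes. CREB5 was higher by 1.03 ± 0.055, NFIL3 by 0.95 ± 0.066 and XBP1, an effector of the endoplasmic reticulum stress response, by 0.75 ± 0.023. The log2 antimycin response, taken with sign, was higher in dMTS-DELE1 than in F137S cells for 7 of the 42 and lower for 3. Of all tested genes, 8.24% and 3.7% were so. BACH2 (0.67 ± 0.21), CREB5 (0.59 ± 0.078) and CREB3L2 (0.33 ± 0.036) were among those higher, and JUND (-0.47 ± 0.14) among those lower.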
